A study of Mus musculus with 12 samples.

Results

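The transcripts described here are those of Cxcl12, of its signalling receptor Cxcr4 and of the 4 atypical chemokine receptors Ackr1, Ackr2, Ackr3 and Ackr4. They were chosen as a gene family, by name, with earlier results of these data known, and all 6 were found among 55414 Ensembl genes in the count table, of which 52081 had a symbol. The mice were wild-type C57BL/6J animals, and RNA of their liver or lung had been sequenced 6 h after sham or CLP surgery. CLP is the usual abbreviation of cecal ligation and puncture, a model of abdominal sepsis, although the labels give only the abbreviation. Each of the 4 groups (liver sham, liver CLP, lung sham and lung CLP) held 3 libraries, so 12 libraries were analysed. All mice had the same genotype and strain and every animal had undergone surgery, so no group was unoperated. The sources used here state no ages. Nor do they say that the libraries of a group come from separate mice, and a p-value then measures only the spread between libraries, which may be technical.

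Chemokines are small secreted proteins that guide leukocytes along gradients through G-protein-coupled receptors. Cxcl12 is made by stromal and endothelial cells, and through Cxcr4 it holds neutrophils and progenitors in the bone marrow and directs lymphocyte traffic. Atypical chemokine receptors bind chemokines without the usual G-protein signal and instead take them up, break them down or carry them across cells. Ackr1, the Duffy antigen receptor, sits on venular endothelium and red cells and binds inflammatory CXC and CC chemokines. Ackr2, also called D6, scavenges inflammatory CC chemokines and is best known from lymphatic endothelium. Ackr3, formerly Cxcr7, removes Cxcl12 and Cxcl11 and also binds adrenomedullin. Ackr4 removes the homeostatic chemokines Ccl19, Ccl21 and Ccl25.

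Totals ran from 10559895 to 15854117 counts per library, and 3 counts, taken as the floor of detection, corresponded to 0.189 to 0.284 CPM, the counts of a gene scaled to a common library size. The organ labels matched their markers, with 7 hepatocyte genes summing to 67123 to 103450 CPM in liver and 39.8 to 134 CPM in lung. The 6 alveolar type 2 cell genes summed to 21205 to 26987 CPM in lung and 4.0 to 28.7 CPM in liver. Lung CLP replicate 3 lay nearest to the sham libraries for Cxcl12, Ackr1 and Ackr3 and had the lowest summed neutrophil markers of its group (9411 CPM, against a highest value of 14272 CPM), so member values without it are given for lung. Levels below are CPM after scaling by the trimmed mean of M values within an organ unless another scale is named.

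Ligand and receptors did not move together. Cxcl12 fell in both organs. Ackr1 and Ackr3 rose in both organs. Cxcr4 rose in liver, while in lung its groups overlapped. Ackr2 rose in lung and Ackr4 fell there to near the floor. In liver, 4 of the 5 members that passed the filter on low counts were called at an adjusted p of 0.05 (3 higher and 1 lower), where 42.3% of 12392 tested genes were called (21.4% higher and 21% lower). In lung, 5 of 6 tested members were called (3 higher and 2 lower), where 48.9% of 15441 genes were called (23.9% higher and 24.9% lower). These backgrounds are high, so a call alone says little about a member, and sizes are given for each. Cxcr4 and Ackr3 in liver and Ackr1 in lung passed the filter only through their CLP libraries. Ackr4 in lung passed it only through its sham libraries. For these calls the direction was largely fixed in advance by the filter, so they are description only. The median log2 fold change over all tested genes was -0.01 in liver and -0.03 in lung.

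**Figure D1:**
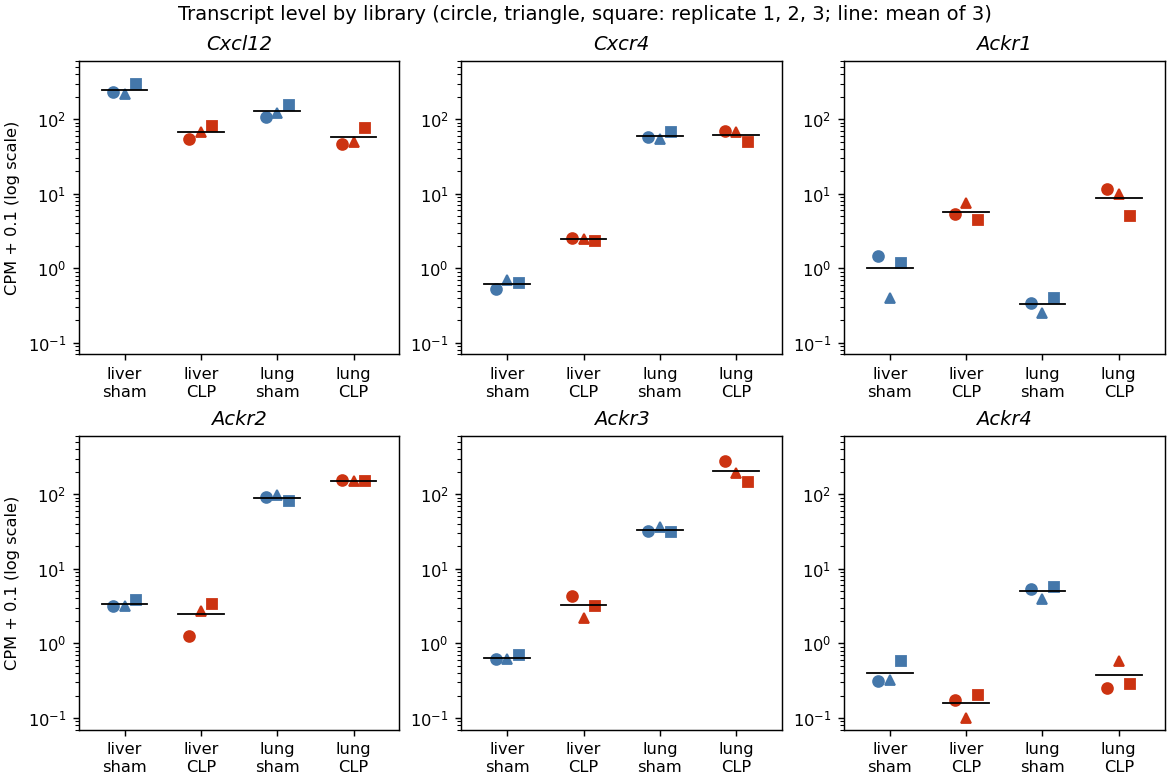
Level of each member in each library, with CPM + 0.1 on a log axis and the 4 groups side by side. Circles, triangles and squares are replicates 1, 2 and 3, blue is sham, red is CLP, and the line is the mean of 3 libraries. Cxcl12 fell in both organs (liver means 249 and 67.3 CPM, lung 128 and 56.9 CPM), whereas Ackr1 and Ackr3 CLP libraries lie above every sham library of the same organ.

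The 3 members called in the same direction in both organs are shown by the 250 bases upstream of their RefSeq start, so that the sequence next to the start of each can be compared. The windows are on GRCm38.p6, an older build than the mm39 of the counts, and are written 5′ to 3′ on the gene's own strand. Cxcl12 is at chr6:117168285-117168534 (plus strand), Ackr1 at chr1:173333504-173333753 (minus strand) and Ackr3 at chr1:90203730-90203979 (plus strand). Capitals mark matches, on either strand, to a GC box (GGGCGG) or a TATA box (TATAAA).
Cxcl12: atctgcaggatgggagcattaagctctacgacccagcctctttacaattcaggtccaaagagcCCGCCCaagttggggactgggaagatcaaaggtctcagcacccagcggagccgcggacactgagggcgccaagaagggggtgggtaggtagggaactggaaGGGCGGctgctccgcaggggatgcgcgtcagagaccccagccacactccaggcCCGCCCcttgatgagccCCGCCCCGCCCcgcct
Ackr1: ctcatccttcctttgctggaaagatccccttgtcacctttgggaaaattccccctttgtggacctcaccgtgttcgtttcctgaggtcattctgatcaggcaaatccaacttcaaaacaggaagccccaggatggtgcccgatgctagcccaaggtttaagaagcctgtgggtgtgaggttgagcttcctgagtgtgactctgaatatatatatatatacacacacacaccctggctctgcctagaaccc
Ackr3: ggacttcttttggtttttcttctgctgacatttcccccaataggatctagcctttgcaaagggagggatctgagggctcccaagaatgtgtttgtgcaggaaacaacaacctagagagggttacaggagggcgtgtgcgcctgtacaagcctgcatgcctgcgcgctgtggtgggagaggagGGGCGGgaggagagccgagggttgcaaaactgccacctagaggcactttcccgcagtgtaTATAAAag
The Cxcl12 window held 5 GC boxes, of which the 2 nearest the start overlapped each other, and no TATA box. The Ackr3 window held 1 GC box and 1 TATA box, 8 bases before the start. Ackr1 had neither. Over 32851 RefSeq promoter windows of the same length, 32.7% held a GC box and 12.4% a TATA box. The letters of a GATA motif (AGATAA, in 9.99% of windows), an AP-1 motif (TGANTCA, in 6.75%), an NF-kB motif (in 1.21%) and the hypoxia element core (ACGTG, in 16.6%), also searched on both strands, were in none of the 3 windows. A match or its absence describes these letters only and says nothing of which factors act there.

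Cxcl12 (ENSMUSG00000061353), the ligand, had the highest level per kb of the members in liver and fell in both organs. Liver sham replicates 1, 2 and 3 held 233, 214 and 299 CPM, and liver CLP replicates 1, 2 and 3 held 54.7, 66.7 and 80.4 CPM. Every CLP library was below every sham library. The mean went from 249 ± 44.7 to 67.3 ± 12.9 CPM (SD, n = 3 each), a log2 fold change of -1.89 ± 0.18 (SE; adjusted p = 0.000161, edgeR quasi-likelihood test with Benjamini-Hochberg adjustment), or 3.70-fold lower. In lung the sham libraries held 108, 121 and 155 CPM and the CLP libraries 46.0, 49.2 and 75.5 CPM. The groups were again apart, with lung CLP replicate 3 the highest of its group. The mean fell from 128 ± 24.1 to 56.9 ± 16.2 CPM (SD, n = 3 each), with a log2 fold change of -1.17 ± 0.21 (edgeR, adjusted p = 0.00370), or 2.25-fold lower. Without lung CLP replicate 3 the change was -1.39. The fall was the 365th largest of 12392 genes in liver and the 643rd largest of 15441 in lung. In whole tissue, fewer cells of a type and less RNA per cell cannot be told apart, here or for any value below.

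Stromal and endothelial cells are the usual sources of Cxcl12, so their markers were read beside it. In liver, 2 of 12 fibroblast and stellate cell markers were lower and none was higher, and their summed level was 240 to 291 CPM in sham and 243 to 260 CPM in CLP libraries. Dcn, a matrix proteoglycan of fibroblasts and stellate cells, had a log2 fold change of 0.18 ± 0.12 (adjusted p = 0.263). Of 9 liver sinusoidal endothelium markers, 8 were lower and 1, Lyve1, was higher, and the sum went from 418–496 to 350–376 CPM. The liver mean of Lyve1 rose from 41.9 to 137 CPM, so this sum understates the fall of the other 8. Their log2 fold changes ran from -1.82 (Ehd3) to -0.49 (Stab1). Of 9 shared endothelial markers, 1 was higher and 4 lower in liver (221 to 227 CPM, then 196 to 213 CPM). Of 5 tested pericyte and smooth muscle markers, 3 were higher and none lower in liver (34.2 to 43.1 CPM, then 53.9 to 70.1 CPM). In lung, 2 of 11 tested fibroblast markers were higher and 2 lower (sum 1641 to 2049 CPM in sham, 1739 to 2131 CPM in CLP). There, 6 of 9 shared endothelial markers were lower and none higher (4386 to 4763 CPM, then 3631 to 3981 CPM). Of 7 pericyte and smooth muscle markers in lung, 2 were lower and none higher (798 to 967 CPM, then 680 to 965 CPM). None of these markers was at 0 in all libraries of an organ. The part of these cell types in the fall of Cxcl12 was not tested.

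Cxcr4 (ENSMUSG00000045382), the G-protein-coupled receptor of Cxcl12 on most leukocytes, was scarce in liver and abundant in lung. Liver sham libraries held 6, 8 and 9 counts (0.436, 0.592 and 0.538 CPM) and liver CLP libraries 32, 30 and 22 counts (2.46, 2.40 and 2.26 CPM). The CLP libraries were close together and all above sham. The mean rose from 0.522 ± 0.0794 to 2.37 ± 0.105 CPM (SD, n = 3 each), a log2 fold change of 2.17 ± 0.28 (edgeR, adjusted p = 0.000580), or 4.49-fold. Over the pooled counts, 84 against 23, the ratio of CLP to sham was 4.56 with a 95% interval of 2.85 to 7.58 from counting error alone. Cxcr4 passed the filter in liver only through its CLP libraries, so its call there is description only. In lung the sham libraries held 58.2, 54.7 and 66.1 CPM and the CLP libraries 69.1, 67.8 and 48.6 CPM. Here the groups overlapped, because lung CLP replicate 3 was the lowest of all 6 while the other CLP libraries were the highest. The lung log2 fold change was 0.05 ± 0.14 with a 95% interval of -0.27 to 0.38 (edgeR, adjusted p = 0.785), and its sign changed with the scaling of the libraries. Without lung CLP replicate 3 it was 0.24 (adjusted p = 0.0617).

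The Cxcr4 responses of the organs differed. The lung log2 fold change minus that of liver was -2.15 ± 0.30 (edgeR interaction test, adjusted p = 0.000448). For all members, 3 of 6 interaction tests were called (2 higher and 1 lower in lung), where 17.7% of 16111 genes were called (8.89% higher and 8.84% lower). After CLP the liver still held little Cxcr4, at 3.50 to 3.90% of the mean lung CLP level on library totals, compared with 0.804 to 0.973% for sham. The alveolar type 2 cell markers, which a liver should lack, were present in liver at 0.0151 to 0.0241% of their lung level for sham and 0.0848 to 0.117% for CLP, below the Cxcr4 share in both. They moved in the same direction as Cxcr4, since 5 of 5 tested (of 6 listed) were higher in liver CLP, with a median log2 fold change of 2.66 and sums of 4.0 to 5.67 CPM in sham and 20.5 to 28.7 CPM in CLP libraries. Some were tested only because their CLP libraries were high, such as Sftpb and Napsa with liver sham means of 0.282 and 0.364 CPM. The count of markers called higher is therefore description only. Their part in the liver values was not tested beyond these shares.

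Markers of neutrophils and monocytes, which carry Cxcr4, rose in both organs. In liver, 11 of 12 neutrophil markers were higher and 1 was lower. Sham libraries summed to 1074 to 2660 CPM, and CLP libraries to 6167 to 7042 CPM. These liver sums were set mainly by Lcn2, whose mean rose from 1727 ± 788 to 6381 ± 411 CPM (SD, n = 3 each). They therefore say little about the other markers of the list. In lung, 11 of 12 neutrophil markers were higher and none lower, with sums of 1285 to 1432 and 9411 to 14272 CPM. S100a8, a calcium-binding protein abundant in neutrophils, had log2 fold changes of 3.74 ± 0.18 in liver and 3.26 ± 0.17 in lung. Of 8 monocyte markers, 5 were higher in liver and 7 in lung, and none was lower. T cell markers were higher for 5 of 9 in lung, while in liver 1 of 9 passed the filter. None of the neutrophil or monocyte markers was at 0 in all libraries of an organ. The part of these cells in the Cxcr4 values was not tested.

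A ratio of receptor to ligand counts within a library does not depend on library scaling. In liver sham libraries there were 535, 362 and 556 Cxcl12 counts for each Cxcr4 count, and in liver CLP libraries 22.2, 27.7 and 35.6. The groups were far apart. The log2 ratio of Cxcr4 to Cxcl12 counts went from -8.80 ± 0.34 to -4.78 ± 0.33 (SD, n = 3 each), a difference of 4.02 or 16.2-fold (exact two-sided permutation test, p = 0.1, the smallest that 20 arrangements allow). In lung there were 1.85, 2.21 and 2.34 Cxcl12 counts per Cxcr4 count in sham libraries and 0.665, 0.726 and 1.55 in CLP libraries. Lung CLP replicate 3 was nearest to sham, and the groups still did not overlap. The lung log2 ratio went from -1.09 ± 0.18 to 0.14 ± 0.67 (SD, n = 3 each), a difference of 1.22 or 2.34-fold (exact permutation test, p = 0.1, again the smallest possible). As the genes differ in length, the ratios describe counts and not molecules.

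**Figure D2:**
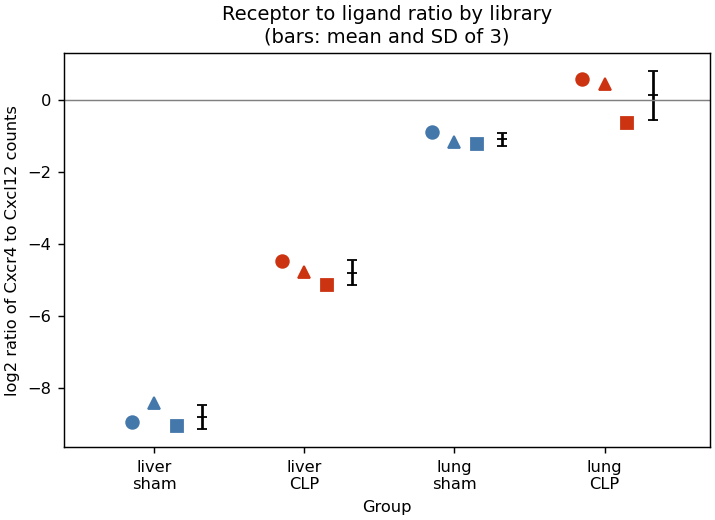
The log2 ratio of Cxcr4 to Cxcl12 counts in each library (vertical axis) by group, with circles, triangles and squares for replicates 1, 2 and 3 and bars for the mean and SD of 3. The ratio was higher after CLP in every library of both organs, by 4.02 in liver and by 1.22 in lung, and lung CLP replicate 3 lies closest to its sham group.

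Ackr1 (ENSMUSG00000037872), which presents and stores inflammatory chemokines on venules, rose in both organs, and in lung it started at about the floor of 3 counts. Liver sham libraries held 19, 4 and 18 counts (1.38, 0.296 and 1.08 CPM) and liver CLP libraries 69, 92 and 42 counts (5.30, 7.37 and 4.31 CPM). Sham replicate 2 was the lowest, and every CLP library was above sham. The log2 fold change in liver was 2.61 ± 0.42 (edgeR, adjusted p = 0.00182), or 6.09-fold, on means of 0.917 ± 0.559 and 5.66 ± 1.56 CPM (SD, n = 3 each). In lung the sham libraries held only 3, 2 and 4 counts, whereas the CLP libraries held 147, 123 and 55 counts (11.4, 9.94 and 5.0 CPM). Lung CLP replicate 3 was the lowest of its group and still far above sham. The lung log2 fold change was 5.20 ± 0.46 (edgeR, adjusted p = 0.000121), the 33rd largest rise of 15441 genes, and 5.52 without lung CLP replicate 3. The pooled counts, 325 against 9, gave a ratio of 39.0 with a 95% interval of 20.3 to 86.0 from counting error alone. Ackr1 passed the filter in lung only through its CLP libraries, so its call and rank there are description only.

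The Ackr1 rise in lung exceeded that in liver by 2.54 ± 0.76 on the log2 scale (edgeR interaction test, adjusted p = 0.0352). This call was lost in 9 of the 12 fits that each left out 1 library, namely those without liver CLP replicate 1 or 3, liver sham replicate 1 or 3, lung CLP replicate 1 or 2, or any lung sham library, with differences of 2.26 to 3.00 and a highest adjusted p of 0.0963 over the 12. With limma-voom it was 2.20 (adjusted p = 0.0936). In the GENCODE vM21 annotation, 361 of the 1405 exon bases of Ackr1 (25.7%) lay on the same strand in exons of Cadm3, a cell adhesion gene, so reads could have been divided between them. Cadm3 itself had log2 fold changes of -0.60 (adjusted p = 0.267) in liver and 1.28 ± 0.44 (adjusted p = 0.0412) in lung, where its pooled counts were 29 for sham and 66 for CLP, the latter fewer than the 325 of Ackr1.

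Ackr1 marks venules and red cells, and markers of both were read beside it. Of 7 venous endothelium markers, 2 were higher and 2 lower in liver (sum 1693 to 2396 CPM in sham, 2255 to 2855 CPM in CLP). These liver sums were set mainly by Lrg1, whose mean went from 1881 ± 357 to 2387 ± 299 CPM (SD, n = 3 each). Lrg1 was not called in liver (edgeR, adjusted p = 0.132), and the sums say little about the other venous markers. In lung, 3 of the 7 were higher and 3 lower (1244 to 1305 CPM, then 1152 to 1334 CPM). Selp, the P-selectin of venular endothelium and platelets, had log2 fold changes of 4.77 ± 0.20 in liver and 3.53 ± 0.42 in lung. Nr2f2, a transcription factor on the same list, went the other way, with -1.92 ± 0.22 in liver and -0.68 ± 0.09 in lung. Vwf, the clotting factor of endothelium, had a log2 fold change of -0.66 ± 0.13 in lung. Of the tested erythroid markers none of 5 was called in liver (121 to 192 CPM in sham, 153 to 191 CPM in CLP), and 4 of 6 were lower in lung (1132 to 1806 CPM, then 804 to 1000 CPM). No tested red cell marker was called higher in either organ. The parts of venous endothelium and of red cells in the Ackr1 values were not tested.

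All tested chemokines on the ligand lists of Ackr1 and Ackr2 rose with CLP. Many were too low in sham to pass the filter there and were tested only because their CLP libraries were high. Liver sham means were, for example, 0.0441 CPM for Cxcl5 and 0.359 CPM for Ccl2. For such ligands a rise was largely fixed in advance by the filter, so the counts of ligands called higher are description only. For Ackr1, 7 of 7 tested ligands (of 10 listed) were higher in liver, with a median log2 fold change of 5.28, and 9 of 9 were higher in lung, with a median of 6.04. The neutrophil attractant Cxcl1 went from 163 ± 40.0 to 482 ± 80.3 CPM in liver (SD, n = 3 each). Its relative Cxcl2 went from 0.682 ± 0.251 to 26.9 ± 13 CPM in liver and from 0.413 ± 0.139 to 295 ± 132 CPM in lung. Cxcl5, of the same group, was tested in liver alone and rose by 6.30 ± 0.64 on the log2 scale. For Ackr2, 5 of 5 tested ligands (of 10 listed) were higher in liver, with a median of 5.35, and 9 of 9 in lung, with a median of 2.96. The ligand lists share 5 chemokines, so these counts are not separate. The monocyte attractant Ccl2 had log2 fold changes of 4.98 ± 0.53 in liver and 6.23 ± 0.51 in lung. Ccl17, a T cell attractant, rose by 2.25 ± 0.17 on the log2 scale in lung.

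**Figure D3:**
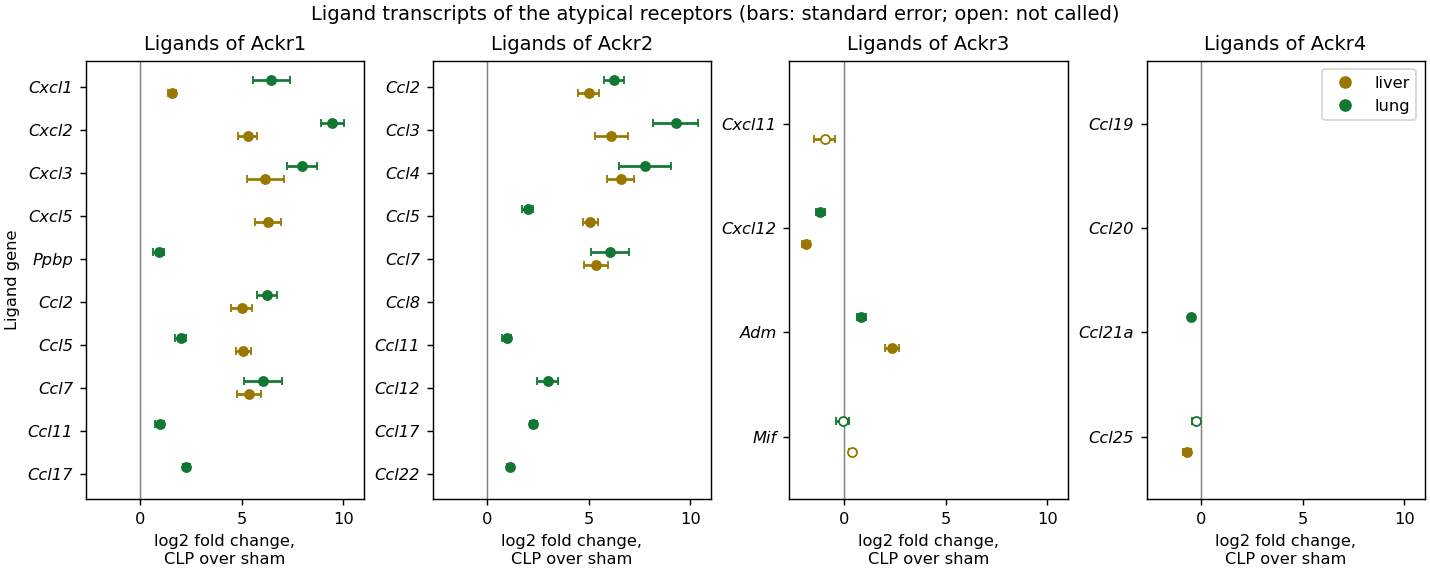
The log2 fold change of CLP over sham (horizontal axis) for the listed ligands of each atypical receptor in liver (ochre) and lung (green). Bars are standard errors, open points were not called, and a ligand with no point did not pass the filter on low counts. All tested ligands of Ackr1 and Ackr2 were higher, with medians from 2.96 to 6.04, while those of Ackr3 and Ackr4 had lower and uncalled members. Many Ackr1 and Ackr2 ligands passed the filter only through their CLP libraries.

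Ackr2 (ENSMUSG00000044534), the scavenger of CC chemokines, was a lung transcript that rose modestly there. Lung sham libraries held 91.3, 96.5 and 80.1 CPM and lung CLP libraries 155, 149.6 and 151 CPM. The CLP libraries lay within a narrow band above all sham libraries. The mean rose from 89.3 ± 8.39 to 152 ± 2.52 CPM (SD, n = 3 each), a log2 fold change of 0.76 ± 0.09 (edgeR, adjusted p = 0.000287), or 1.70-fold, and 0.81 without lung CLP replicate 3. In liver the sham libraries held 42, 42 and 63 counts (3.05, 3.11 and 3.77 CPM) and the CLP libraries 15, 33 and 32 counts (1.15, 2.64 and 3.28 CPM). These groups overlapped, with liver CLP replicate 1 the lowest. The liver log2 fold change was -0.52 ± 0.35 with a 95% interval of -1.31 to 0.28 (edgeR, adjusted p = 0.262). The lung response minus the liver response was 1.27 ± 0.30 (edgeR interaction test, adjusted p = 0.0109), and the call held in each of the 12 fits that left out 1 library.

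Lymphatic endothelium, a known site of Ackr2, showed other changes. In lung, 5 of 7 lymphatic markers were lower and 1, the hyaluronan receptor Lyve1, was higher at 705 ± 128 and 2307 ± 450 CPM (SD, n = 3 each), so the summed level of the list (926 to 1225 CPM in sham, 2151 to 2875 CPM in CLP) was set mainly by Lyve1. In liver, 1 of 5 tested lymphatic markers was higher and 2 were lower (304 to 364 CPM in sham, 325 to 337 CPM in CLP). The higher one was again Lyve1, whose liver mean rose from 41.9 to 137 CPM, so the liver sum understates the falls. Prox1, a transcription factor of lymphatic endothelium that hepatocytes also express, fell by 0.78 in liver on the log2 scale. No lymphatic marker was at 0 in all libraries of an organ. The part of lymphatic cells in the Ackr2 values was not tested.

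Ackr3 (ENSMUSG00000044337), the scavenger of Cxcl12, rose in both organs, by 5.68-fold in liver and 6.22-fold in lung, from very different levels. Liver sham libraries held 7, 7 and 10 counts (0.508, 0.518 and 0.598 CPM) and liver CLP libraries 55, 26 and 30 counts (4.23, 2.08 and 3.08 CPM). Lung sham libraries held 32.1, 36.2 and 31.3 CPM and lung CLP libraries 277, 195 and 148 CPM. In both organs the sham libraries were tight, the CLP libraries spread, and the groups did not overlap. The liver mean rose from 0.542 ± 0.0490 to 3.13 ± 1.07 CPM (SD, n = 3 each), a log2 fold change of 2.51 ± 0.36 (edgeR, adjusted p = 0.000907). The lung mean rose from 33.2 ± 2.66 to 207 ± 65.7 CPM (SD, n = 3 each), a log2 fold change of 2.64 ± 0.23 (edgeR, adjusted p = 0.000175), and 2.87 without lung CLP replicate 3. These were the 315th and 321st largest rises of the 12392 and 15441 genes. In liver Ackr3 passed the filter only through its CLP libraries, so its call and rank there are description only. The difference between the organs was 0.10 ± 0.58 (edgeR interaction test, adjusted p = 0.966), with a 95% interval of -1.16 to 1.35 that does not show equality. On library totals, liver held Ackr3 at 1.53 to 1.83% of the mean lung level for sham and 0.982 to 2.01% for CLP. The alveolar type 2 cell markers stood at 0.0151 to 0.0241% and 0.0848 to 0.117%, below the Ackr3 share in both. Of these markers, 5 of 5 tested were higher in liver, some of them tested only because their CLP libraries were high.

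The listed ligands of Ackr3 moved apart, with 1 higher and 1 lower in each organ (2 higher in liver without liver CLP replicate 1). Besides Cxcl12, which fell, the vasoactive peptide gene Adm (adrenomedullin) rose in liver from 0.960 ± 0.200 to 4.96 ± 1.85 CPM and in lung from 5.74 ± 0.838 to 10.3 ± 2.80 CPM (SD, n = 3 each). Its log2 fold changes were 2.37 ± 0.34 (adjusted p = 0.000910) and 0.85 ± 0.22 (adjusted p = 0.0137), and the lung call was lost without lung sham replicate 2. The interferon-induced chemokine Cxcl11 was tested in liver alone (-0.96 ± 0.52, adjusted p = 0.172). Mif, a cytokine that also binds Cxcr4, had log2 fold changes of 0.37 ± 0.15 (adjusted p = 0.0700) in liver and -0.08 ± 0.33 (adjusted p = 0.866) in lung.

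Ackr4 (ENSMUSG00000079355), the scavenger of homeostatic CC chemokines, had the second largest fall of the 15441 genes tested in lung. Lung sham libraries held 64, 51 and 76 counts (5.19, 3.81 and 5.67 CPM) and lung CLP libraries 2, 6 and 2 counts (0.155, 0.485 and 0.182 CPM). The groups were far apart, and CLP replicates 1 and 3 were below the floor of 3 counts. The mean fell from 4.89 ± 0.964 to 0.274 ± 0.183 CPM (SD, n = 3 each), a log2 fold change of -4.10 ± 0.38 (edgeR, adjusted p = 0.000149), or 17.2-fold lower. It was -4.75 without lung CLP replicate 2, which held the 6 counts, and -3.87 without replicate 3. Over the pooled counts, 10 against 191, CLP stood at 0.0565 of sham, with a 95% interval of 0.0267 to 0.106 from counting error alone. Ackr4 passed the filter in lung only through its sham libraries, so its call and rank there are description only. In liver, Ackr4 held 3, 3 and 8 counts in sham and 1, 0 and 1 counts in CLP libraries and did not pass the filter. The pooled liver counts, 2 against 14, gave a ratio of 0.178 with an interval of 0.0197 to 0.777, and in a fit without the filter the log2 fold change was -2.29 (edgeR, adjusted p = 0.0909). No difference between the organs was called (-1.74 ± 1.30, edgeR interaction test, adjusted p = 0.408).

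On the opposite strand, 479 of the 5380 exon bases of Ackr4 (8.9%) overlapped exons of Acad11, a mitochondrial acyl-CoA dehydrogenase gene. The library kit marks strand, but no source used here says whether the counting made use of it. Acad11 fell less than Ackr4 in lung, from 33.9 ± 1.52 to 22.3 ± 2.91 CPM (SD, n = 3 each; log2 fold change -0.60 ± 0.11, adjusted p = 0.00260). In liver Acad11 was abundant, with pooled counts of 17190 for sham and 7110 for CLP. It fell there too, with a log2 fold change of -0.92 ± 0.17 (edgeR, adjusted p = 0.00348). The part of Acad11 reads in the few Ackr4 counts of liver was not tested. Ligands of Ackr4 were mostly too low to test. In lung, Ccl21a, which draws lymphocytes and dendritic cells to lymphatic vessels, fell by 0.48 ± 0.14 on the log2 scale (21.5 to 15.4 CPM, adjusted p = 0.0206), a call lost without lung CLP replicate 1 or 2 or without lung sham replicate 1 or 2. Ccl25, a thymic and gut chemokine, fell in liver by 0.71 ± 0.20 (5.29 to 3.20 CPM, adjusted p = 0.0213), a call lost without liver CLP replicate 3 or without any of the liver sham libraries. Among the listed ligands of Ackr4 none was called higher in lung, whereas 2 were without lung CLP replicate 3 and 1 was without lung sham replicate 1 or 3 or with the filter removed. In liver 1 was called higher with the filter removed.

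**Figure D4:**
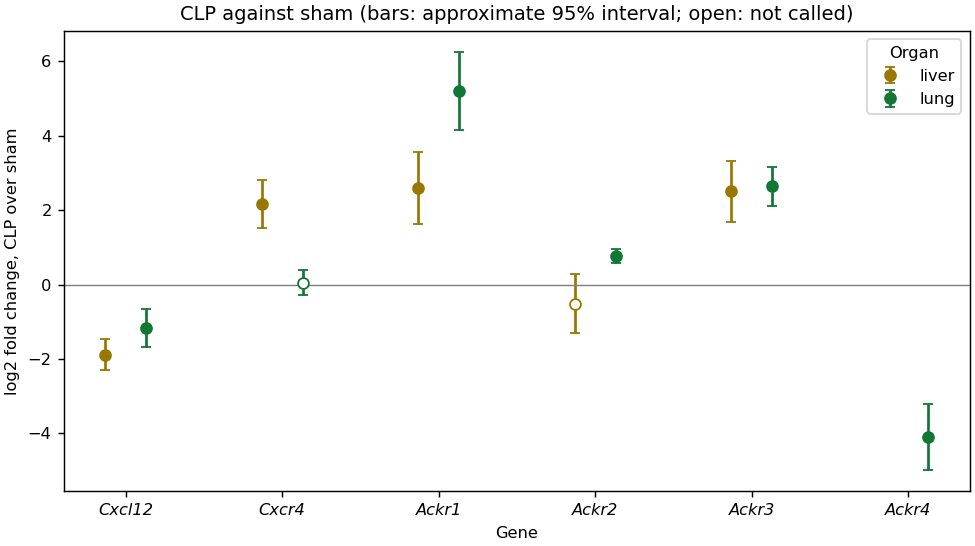
The log2 fold change of CLP over sham (vertical axis) for each member in liver (ochre) and lung (green), with bars for the approximate 95% interval and open points for changes that were not called. Ackr4 has no liver point because it did not pass the filter. Ackr3 has nearly equal estimates (2.51 and 2.64), while Cxcr4 (2.17 and 0.05) and Ackr2 (-0.52 and 0.76) differ between organs.

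The levels of the tested members in sham tissue differed between the organs. In sham animals, 5 of the 5 members tested were called between lung and liver (4 higher and 1 lower in lung), where 84.1% of 15414 genes were called (45.6% higher and 38.5% lower). With the 6 sham libraries scaled together, Cxcl12 held 419 ± 75.5 CPM in liver and 84.2 ± 16.0 CPM in lung (SD, n = 3 each), 4.98-fold lower in lung (edgeR, adjusted p = 4.31e-07). Cxcr4 held 0.879 ± 0.136 CPM in liver and 39.3 ± 3.90 CPM in lung, 44.2-fold higher in lung (adjusted p = 3.95e-10), the widest gap of the tested members. Ackr3 was 23.6-fold, Ackr2 10.5-fold and Ackr4 5.95-fold higher in lung, with adjusted p-values of 1.62e-09, 1.26e-09 and 5.64e-05 (edgeR). Ackr1 did not pass the filter and held 1.54 ± 0.938 CPM in liver and 0.152 ± 0.0497 CPM in lung. Cxcr4, Ackr3 and Ackr4 passed the filter only through their lung libraries, so the direction of those calls was largely fixed in advance. Scaling by library totals alone moved the median log2 difference of all genes from 0.15 to 1.45 and changed no direction among the members. The sizes did depend on the scaling. On library totals, liver sham libraries held Cxcl12 at 164 to 238% of the mean lung sham level, and Ackr4 at 4.45 to 9.95%.

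Levels of different genes were compared per kb of exon, using lengths from GENCODE vM21. In liver sham libraries Cxcl12 led with 30.4 ± 5.46 CPM per kb (SD, n = 3), followed by Ackr2 (1.06), Ackr1 (0.653), Cxcr4 (0.289), Ackr3 (0.162) and Ackr4 (0.0569). Ackr1, at 0.211 to 0.982 CPM per kb, overlapped both of its neighbours in that order, Ackr2 at 0.976 to 1.20 and Cxcr4 at 0.241 to 0.328. In liver CLP libraries Cxcl12 still led (8.23), Ackr1 was next (4.03), and Ackr3 (0.934) overlapped in range with both Cxcr4 above it (1.31) and Ackr2 below it (0.755). Ackr4 came last (0.0111). Lung had another order. In lung sham libraries Cxcr4 (33.0 ± 3.24 CPM per kb) and Ackr2 (28.6 ± 2.68) were the highest and overlapped, ahead of Cxcl12 (15.6), Ackr3 (9.92), Ackr4 (0.909) and Ackr1 (0.164). After CLP, Ackr3 had the highest mean in lung (61.7 ± 19.6 CPM per kb), with a range of 44.1 to 82.9 that overlapped that of Ackr2 (48.5 ± 0.807). Cxcr4 followed (34.2), then Cxcl12 (6.96) and Ackr1 (6.25), whose ranges overlapped, and Ackr4 (0.0509).

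**Figure D5:**
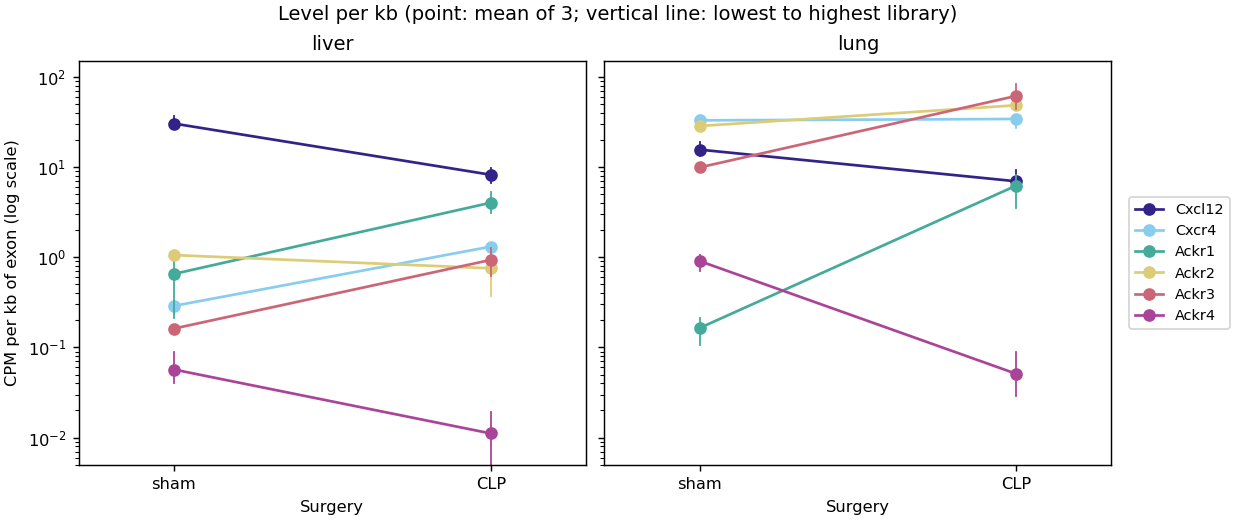
Mean level of each member per kb of exon (CPM per kb, log axis) in sham and CLP libraries of liver and lung, with vertical lines from the lowest to the highest of 3 libraries. The line of Ackr4 in liver CLP runs to the foot of the axis because 1 library held 0 counts. In lung Ackr3 passes from 9.92 to 61.7 CPM per kb while Cxcl12 passes from 15.6 to 6.96.

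Other parts of the pathway were counted from gene lists, beside the backgrounds given above. Of the 6 other ligands and co-receptors of Cxcr4, 2 were higher and 1 lower in liver and 1 was higher in lung (2 without lung CLP replicate 2). Sdc4, a heparan sulfate proteoglycan that binds Cxcl12, rose in both organs, from 327 ± 17.2 to 716 ± 79.0 CPM in liver and from 144 ± 5.98 to 462 ± 118 CPM in lung (SD, n = 3 each). Cd74, a receptor of Mif, rose in liver by 0.95 ± 0.18 on the log2 scale. Cd4, the T helper co-receptor, was lower in liver (-1.12 ± 0.36, adjusted p = 0.0347), a call lost with DESeq2, with the filter removed, with a replicate block and without liver CLP replicate 1 or 2 or liver sham replicate 2 or 3. Among proteases that cleave Cxcl12 or Cxcr4, 3 of 8 tested were higher and 2 lower in liver, and 6 of 9 were higher and 2 lower in lung. The liver count of lower proteases was 0 without liver CLP replicate 1 or liver sham replicate 3 and 1 without liver CLP replicate 2 or liver sham replicate 1. The lung count was 1 with DESeq2 and without lung CLP replicate 1 or 2 or lung sham replicate 1 or 3. The neutrophil collagenase Mmp8 rose by 3.11 ± 0.29 in liver and 2.27 ± 0.14 in lung on the log2 scale, and the gelatinase Mmp9 by 2.50 ± 0.37 and 2.34 ± 0.20. Both are also among the neutrophil markers.

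Signalling and desensitisation genes of Cxcr4 were higher for 9 and lower for 2 of 21 tested in liver (median log2 fold change 0.43), and higher for 14 and lower for 1 of 23 in lung (median 0.84). With library totals alone the count of higher genes in liver was 5. Rac2, a small GTPase of leukocytes, rose by 1.73 ± 0.21 in liver and 2.64 ± 0.20 in lung. Arrb1, an arrestin that takes receptors off the G protein, was the lung gene that fell, from 524 ± 15.2 to 217 ± 31.0 CPM (SD, n = 3 each). Of the transcription factors known to act on Cxcr4 or Cxcl12, 3 of 10 were higher and 2 lower in liver and 3 of 12 were higher and 3 lower in lung. Hif1a, the oxygen-sensing factor, rose by 2.16 ± 0.17 in liver and 1.66 ± 0.20 in lung on the log2 scale. Nr2f2, a factor of venous endothelium and stroma, fell by 1.92 in liver and by 0.68 in lung. Epas1, a relative of Hif1a enriched in lung endothelium, fell by 0.78 in lung, where it was abundant (4431 ± 129 to 2577 ± 514 CPM), and had a log2 fold change of 0.27 ± 0.15 (adjusted p = 0.168) in liver.

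Cxcl12 was set beside other homeostatic chemokines and their receptors. Of these 18 genes, 6 were tested in liver, with 2 higher and 1 lower (median log2 fold change 0.40), and 15 in lung, with 8 higher and 4 lower (median 0.47). In lung 5 were higher under library totals alone, under upper-quartile scaling and without lung sham replicate 2. In liver 1 was higher under either of these scalings and without liver CLP replicate 1 or 2, and 5 were higher with the filter removed. The count of lower genes in liver was 2 with the filter removed and without liver CLP replicate 2, and 0 without liver CLP replicate 3 or liver sham replicate 1 or 3. In lung it was 2 without lung CLP replicate 1 or 2 or lung sham replicate 1 or 2. Cxcl16, the transmembrane ligand of Cxcr6, rose in both organs, by 0.73 ± 0.16 in liver and 0.95 ± 0.08 in lung. Cxcl13, a B cell attractant, rose by 2.41 ± 0.31 in lung, and Cxcl14, an epithelial chemokine, rose there from 60.1 ± 5.32 to 155 ± 36.2 CPM (SD, n = 3 each). Cxcl12 fell in lung, where each of these 3 rose and 4 genes of the list were lower.

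The genes whose pattern was most like each member were ranked by Pearson correlation of log2 CPM, centred on the organ mean, over the 12 libraries and 8868 to 8869 genes. The libraries share their surgery groups, so these values describe the response more than a relation between libraries. Nearest to Cxcl12 were Wdr7 (r = 0.992), Ehmt1 (0.989) and Adamts10 (0.985), of which Adamts10, a secreted metalloprotease-like matrix protein, had the log2 fold changes nearest to those of Cxcl12 (-1.60 in liver and -1.04 in lung). Nearest to Cxcr4 were Cep170 (0.984), St6gal1 (0.980) and Sorl1 (0.979), with log2 fold changes of 1.76 to 2.04 in liver and 0.08 to 0.22 in lung. Ackr1 was most like Mfsd7a (0.983), Dock2 (0.983) and Cwc22 (0.981). Ackr3 was most like Eif6 (0.992), Etv6 (0.990) and H2-K1 (0.988), with log2 fold changes of 0.57 to 1.41 in liver and 0.72 to 1.51 in lung. The genes nearest to Ackr2 reached 0.910 (Ireb2), 0.903 (Rapgef3) and 0.902 (Rpain), the lowest values among the 5 members that could be ranked. Ackr4 was not ranked because it did not pass the filter in liver.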

How the data were processed

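The deposited table holds raw counts per gene of the 12 libraries, as whole numbers with no normalization. STAR 2.7.10a, featureCounts, FastQC, DESeq2 and mm39 appear in a list of tools and builds, per the submitters' processing notes, that assigns them no step, and a stranded TruSeq kit is named per the labels' protocols. The annotation, the strand option and the handling of multi-mapping reads are not stated there. Symbols were matched by Ensembl identifier (52081 matched, 3333 did not). GENCODE vM21, on an older build, served only for exon lengths and overlaps.

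Columns were assigned to libraries by library name. No replicate pair agreed within sampling noise (chi-square per degree of freedom 5.28 to 37.6 over genes with at least 20 counts). Genes were filtered by edgeR 4.0.16 in R 4.3.3 (filterByExpr, minimum count 10, minimum total 15), scaled by edgeR's trimmed mean of M values (TMM) and tested by the quasi-likelihood test with robust dispersions, two-sided, with Benjamini-Hochberg adjustment over all genes tested and a threshold of 0.05. CLP was set against sham in the 6 libraries of each organ, the organs' responses were compared in 1 model of 12 libraries, and sham organs were compared in 6. A standard error is the size of a log2 fold change divided by the square root of F, an approximation, and 95% intervals follow from it. Intervals on pooled counts cover counting error only. The receptor to ligand ratio used a prior count of 0.5 and an exact permutation test. The statistical scripts were tested on simulated data.

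Members and gene lists were chosen with earlier results of these data known. For each list and organ, up to 3 tested genes with the lowest p and the gene with the highest mean count could be named, or all where 6 or fewer were tested. Selp was also given in lung because it was named in liver. The 3 genes most like a member were ranked among genes with a mean log2 CPM of at least 3 (prior count 2). The alternatives were other scalings, no filter, DESeq2 1.42.0, limma-voom (limma 3.58.1), a replicate block, another prior count of the ratio and leaving out each library in turn.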

Additional observations from a re-analysis of the deposited data

Results flagged for a closer look

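The tested difference between the organs' responses to CLP passed the threshold for 3 members. The lung response minus the liver response was -2.15 on the log2 scale for Cxcr4 (edgeR, adjusted p = 0.000448), 2.54 for Ackr1 (adjusted p = 0.0352) and 1.27 for Ackr2 (adjusted p = 0.0109). The Cxcr4 and Ackr2 calls held under every alternative run, and the Ackr1 call did not.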

How the results depend on the processing

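Over the 6 members and 4 comparisons, 305 of the alternative values kept their direction and their side of the threshold, 10 lost a call, 1 gained a call and 6 changed sign. Library totals alone moved the median log2 fold change of all genes to -0.21 in liver and -0.13 in lung, where genes called higher numbered 1690 and 2976 and lower 3793 and 4848, against 2647 and 3698 higher and 2600 and 3850 lower as reported. The share of calls that were higher went from 50.4 to 30.8% in liver and from 49.0 to 38.0% in lung. Under upper-quartile scaling it was 40.3% in liver (2122 higher, 3144 lower) and 37.2% in lung (2929 higher, 4946 lower), with medians of -0.11 and -0.14. For the difference between organs, library totals gave 1861 higher and 965 lower (65.9% higher, median 0.12). For sham organs they gave 11582 higher and 2424 lower (82.7% higher), against 7025 and 5939 as reported, and upper-quartile scaling gave 61.5% higher.

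The lung log2 fold change of Cxcr4, which was not called, became -0.053 with library totals alone and -0.058 with upper-quartile scaling, and ran from -0.034 to 0.24 when 1 library was left out. The organ difference of Ackr1 was 2.20 with limma-voom (adjusted p = 0.0936), and 2.26 to 3.00 without 1 library (adjusted p 0.00989 to 0.0963). That of Ackr3, which was not called, ran from -0.18 to 0.47 without 1 library. The labels do not say whether liver and lung libraries of 1 number share a mouse, and the tests between organs treated all libraries as independent. Correlations of same-numbered deviations from the group means ran from -0.01 to 0.14, most of them positive. Those of different-numbered deviations ran from -0.12 to 0.05. Pairing, which the labels do not state, was not assumed in the main tests. Whether libraries of 1 number share an effect was not tested by these values. For liver CLP with lung CLP the same-numbered values were 0.13, 0.05 and 0.14. With the replicate block, genes called numbered 2649 higher and 2596 lower in liver, 3344 and 3526 in lung, and the organ difference of Cxcl12 was 0.68 (adjusted p = 0.00945) in place of 0.69 (adjusted p = 0.133). The block changed no other member call, but ended the liver call of Cd4 and left 1 lower protease in liver. The causes were not tested. Members with at most 10 counts in every library of a group (Cxcr4 and Ackr3 in liver sham, Ackr1 in lung sham, Ackr4 in liver sham and in both CLP groups) are limited by depth.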
